A study of Mus musculus with 16 samples.

Results

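A set of 10 genes that mark subtypes of hippocampal inhibitory neurons was followed across 16 mice, namely Pvalb, Sst, Vip, Npy, Cck, Calb2, Reln, Lamp5, Nos1 and Tac1. They were taken by symbol from a table of 54532 genes, 33610 of them with counts in any mouse, and each of the 10 symbols matched a single gene. Hippocampal RNA was sequenced from 4 groups of 4 mice. WT mice drank plain water as vehicle, WT + NR mice drank 6 mM nicotinamide riboside (NR, a precursor of NAD+), and the hTau.P301S and hTau.P301S + NR groups drank the same while carrying human Tau with the P301S mutation. The transgene is driven by the Thy1 promoter, which is active mainly in neurons, so the mutant protein is made from a promoter that is not that of Tau itself. The sample labels give 3 months of NR or vehicle, from 12 to 15 months of age, while the study's own text gives a younger start and, in another place, a shorter treatment, so the exposure is not settled. The comparisons ask whether markers of inhibitory neurons differ with the transgene and whether NR shifts them.

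Inhibitory neurons are the minority of hippocampal neurons that release GABA, and they time the firing of the excitatory pyramidal and granule cells. They are sorted into subtypes by the peptides, calcium-binding proteins and enzymes they carry. Sst, Vip, Npy, Cck and Tac1 encode precursors of secreted neuropeptides, Pvalb and Calb2 encode the calcium-binding proteins parvalbumin and calretinin, Reln encodes the secreted glycoprotein reelin, Lamp5 encodes a membrane protein of neurogliaform cells, and Nos1 encodes neuronal nitric oxide synthase. Several are not private to inhibitory neurons: Cck is also made by pyramidal cells, Calb2 by mossy cells of the mouse dentate gyrus, Calb2 and Reln by Cajal-Retzius cells, and Tac1 by projection neurons of the striatum.

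Neuropeptide genes are classical targets of cyclic AMP signalling through the cyclic AMP response element, whose full form is TGACGTCA and whose short form is TGACG or its reverse complement CGTCA. RefSeq promoter windows of GRCm38.p6 were found for 9 of the 10 genes, all but Calb2, and the 250 bases before each start were searched on both strands. The full form stood in the Sst window, 48 bases before the start, and in 1.55% of all 32851 windows. The short form, which the full form contains, stood in the windows of Sst, Cck, Vip, Tac1 and Nos1 and in 17.8% of all windows. The following stretches of 30 bases are shown because they hold these letters in the peptide genes described below, with the matched letters in capitals.
Sst, chr16:23890874-23890903, minus strand: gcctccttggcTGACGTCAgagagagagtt
Cck, chr9:121495724-121495753, minus strand: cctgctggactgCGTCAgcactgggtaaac
Vip, chr10:5639127-5639156, plus strand: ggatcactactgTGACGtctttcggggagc
Tac1, chr6:7555006-7555035, plus strand: gctctacaggctCGTCAcgcctgagataaa
The Sst and Tac1 stretches overlap an annotated exon of their gene in GENCODE, and those of Cck and Vip do not. Npy, Pvalb, Reln and Lamp5 held neither form in these windows. A match is a description of letters, and binding was not measured.

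In the GRCm38 annotation Sst spans chr16:23889573-23890958, Vip chr10:5639218-5647617, Npy chr6:49822710-49829507, Cck chr9:121489824-121495694 and Tac1 chr6:7554879-7565834. Pvalb spans chr15:78191114-78206400, Calb2 chr8:110137502-110168210, Reln chr5:21884454-22344702, Lamp5 chr2:136052239-136069917 and Nos1 chr5:117781032-117958840. Counts cover the whole gene, so no value below refers to one exon.

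The libraries held from 16490261 to 21915362 counts, and the 10 genes had from 62 to 21221 raw counts per mouse (median 812.5). Levels are given as CPM, counts scaled to a common library total, with the totals adjusted by TMM. Markers of hippocampal excitatory neurons summed to 1934 to 5266 CPM in WT mice, so the defining markers of the labelled tissue were present. Differences between groups are given as log2 fold changes (log2FC) with their standard error (SE), and p-values are from edgeR's quasi-likelihood test unless said otherwise, with Benjamini-Hochberg adjustment over all genes tested. Of the 16 mice, 4 stood apart in their mitochondrial share or their striatal markers. In hTau.P301S replicate 1, 14.4% of counts were mitochondrial against 4.48% to 7.07% in the other 15 mice, and its gene levels followed gene length more strongly than those of any other mouse. The other 3 were WT replicate 2, WT + NR replicate 3 and hTau.P301S + NR replicate 4, in which 8 markers of striatal neurons, among them Drd1, Drd2, Adora2a and Penk, summed to 2409, 486 and 890 CPM, against 158 to 310 CPM in the remaining 13. Results below are given with and without these 4 mice where they differ. The 12 mice left were not alike in every respect. Choroid plexus markers summed to 7975 CPM in WT replicate 1, 9838 in WT + NR replicate 4, 4749 in hTau.P301S replicate 2 and 3582 in hTau.P301S + NR replicate 2. The rest of the 12 were at 19.9 to 141 CPM. Oligodendrocyte markers summed to 2567 CPM in WT replicate 3 and to 6070 to 8643 CPM in the rest of the 12. The part of these differences was not tested.

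**Figure D1:**
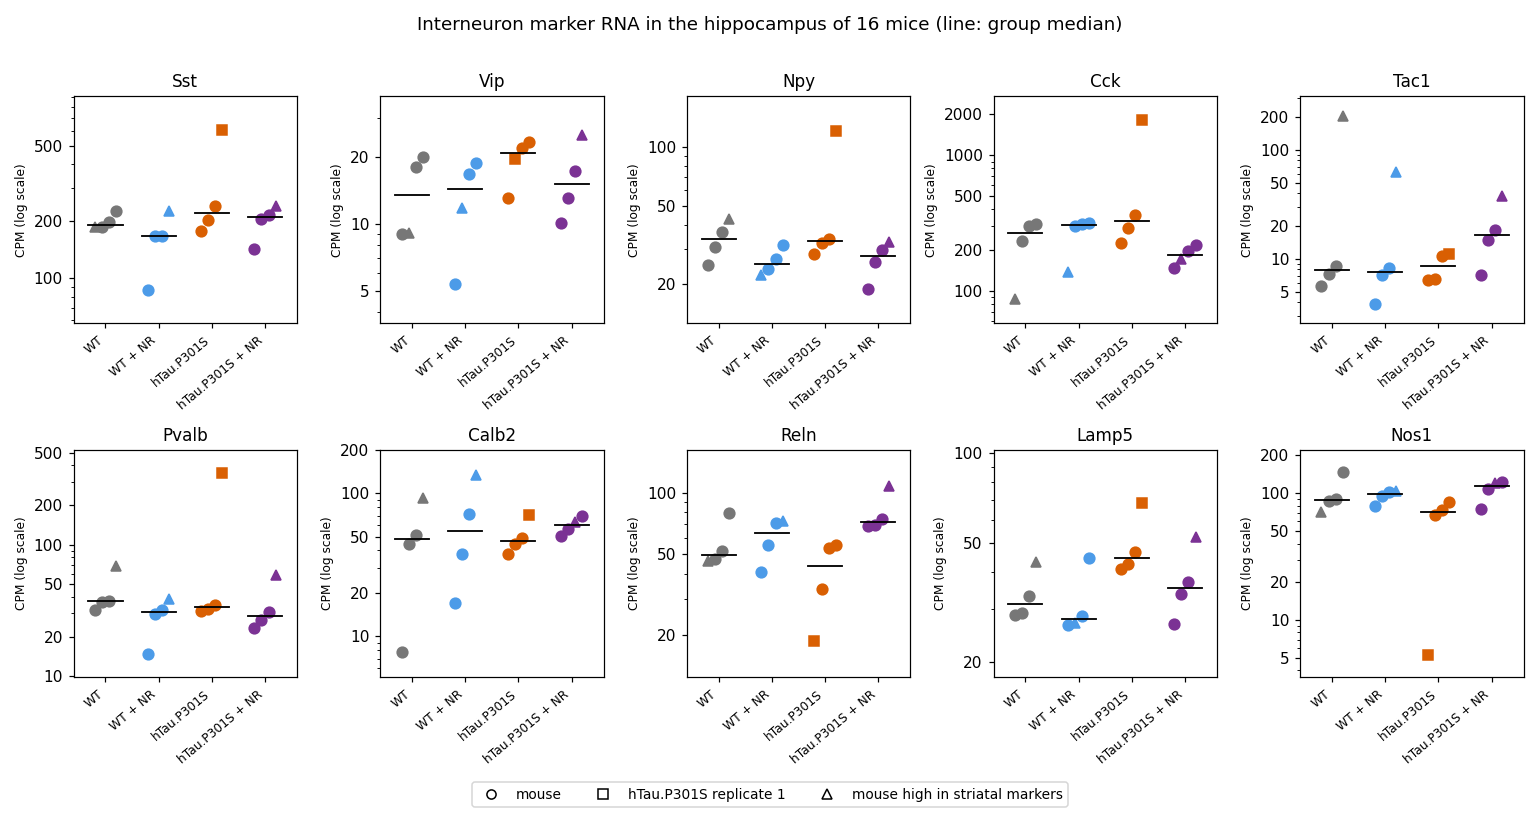
Level of each gene in each mouse (CPM, log scale), by group, with a line at the group median; squares are hTau.P301S replicate 1 and triangles are the 3 mice high in striatal markers. The square is far above the other hTau.P301S mice for Pvalb, Cck, Npy and Sst and far below them for Nos1, and the triangles are the highest Tac1 mouse of their groups.

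Per kilobase of the gene length in the deposited table, the order of mean levels in WT mice ran from Sst through Cck, Npy, Pvalb, Calb2, Tac1, Lamp5, Nos1 and Vip to Reln. Sst was at 276 ± 25.8 CPM per kilobase (SD, n = 4), Cck at 179 ± 79.04 and Reln at 2.37 ± 0.657. Only 2 pairs of neighbours in that order had ranges apart over the 4 WT mice, Sst above Cck and Nos1 above Vip. The place of Tac1 rests on 1 mouse, since its mean was 16.7 CPM per kilobase and its median 2.34.

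The first comparison, of hTau.P301S with WT mice, asks what the transgene does without NR. None of the 10 genes was called, that is, had an adjusted p below 0.05 together with a log2FC beyond 0.5 in either direction (edgeR), against 0.00611% of the 16375 genes tested. Lamp5 (higher) and Tac1 (lower) were the 2 with an unadjusted p below 0.05, where 7.14% of all genes had one. In none did the 4 mice of each group lie apart, as they did for 6.24% of all genes. The median log2FC of the 10 was 0.52, against 0.02 over all genes, and without hTau.P301S replicate 1 it was -0.15.

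The peptide genes Sst, Npy and Cck and the calcium buffer gene Pvalb, which marks fast-spiking basket cells, were all far higher in hTau.P301S replicate 1 than in the other transgenic mice. Pvalb was at 37.5, 68.7, 31.7 and 36.6 CPM in WT replicates 1 to 4 and at 348, 32.3, 31.5 and 34.5 CPM in hTau.P301S replicates 1 to 4. Its log2FC of 1.37 (SE 0.84, adjusted p = 0.598, edgeR) rested on replicate 1 and was -0.42 without it. Cck was at 236, 86.8, 311 and 300.2 CPM in WT and at 1814, 228, 366 and 290.1 CPM in hTau.P301S mice. Apart from replicate 1, 2 hTau.P301S mice lay inside the WT range of Cck and 1 above it, and the log2FC went from 1.55 (SE 0.73, adjusted p = 0.598, edgeR) to 0.33 without that mouse. Sst, which marks cells that target distal dendrites, was at 186, 186, 225 and 198 CPM in WT and at 609, 179, 202 and 241 CPM in hTau.P301S mice. Npy, a marker of neurogliaform and ivy cells, was at 36.6, 42.97, 30.8 and 24.9 CPM in WT and at 121, 28.3, 32.2 and 33.9 CPM in hTau.P301S mice. For both genes 3 of the 4 transgenic mice lay within or next to the WT range, and the log2FC values of 0.64 and 0.68 became 0.05 and -0.11 without replicate 1.

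Nos1 and Reln went the other way in the same mouse. Nos1 was at 89.9, 71.8, 147 and 87.3 CPM in WT and at 5.30, 67.9, 74.0 and 85.2 CPM in hTau.P301S mice, a log2FC of -0.77 (SE 0.65, adjusted p = 0.656, edgeR). Reln was at 51.8, 46.1, 79.3 and 47.5 CPM in WT and at 18.6, 53.7, 33.8 and 55.4 CPM in hTau.P301S mice, with a log2FC of -0.48 (SE 0.35, adjusted p = 0.619, edgeR). In both genes the lowest of the 8 mice was hTau.P301S replicate 1 and the groups overlapped. Antisense genes are annotated over both (Reln overlaps 7 genes and Nos1 overlaps 2), and without knowledge of the strand setting of the counting their reads cannot be told apart.

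The gap between replicate 1 and the other 3 hTau.P301S mice ran with gene length. Over 17555 genes its log2 ratio had a Spearman rho of -0.447 with length across genes, which are not independent replicates. Weaker trends with length were present in other mice. The rho was 0.393, 0.294 and 0.397 in hTau.P301S replicates 2, 3 and 4, the mice that replicate 1 is set against, with the opposite sign. It was -0.337 in WT replicate 2, -0.314 in hTau.P301S + NR replicate 2 and 0.250 in WT replicate 4. For hTau.P301S replicate 1 the median log2 ratio went from 1.74 in the bin of shortest genes (median 537 bases) to -1.07 in the bin of longest (median 14618.5 bases). Sst (721 bases) and Npy (566 bases) stood 2.96-fold and 3.85-fold above the other 3 mice, near the middle of their length bin, at its 47.3 and 53.2 percentiles. Reln (23738 bases) stood at 0.402-fold, at the 38.2 percentile of its bin. Pvalb (1041 bases) at 10.6-fold and Cck (1305 bases) at 6.27-fold were at the 93.5 and 89.7 percentiles, so their gap was above that of most genes of like length. Nos1 (11151 bases) at 0.0716-fold was at the 1.03 percentile. The part of the mitochondrial share and of gene length in these results was not tested. With the length trend of each mouse removed, the log2FC in hTau.P301S against WT mice was 0.06 for Sst, 0.39 for Pvalb and 0.73 for Cck.

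**Figure D2:**
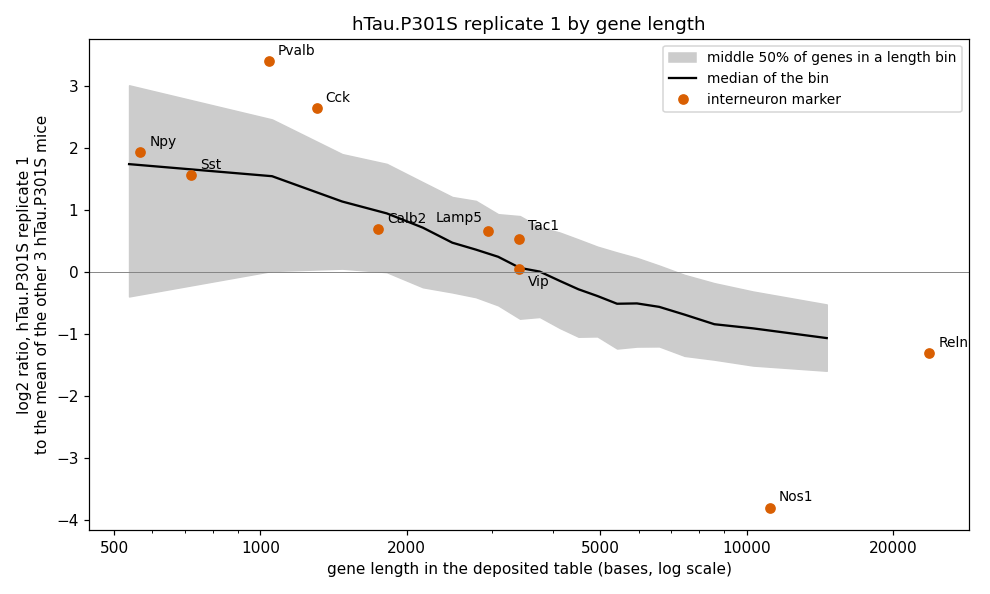
Log2 ratio of hTau.P301S replicate 1 to the mean of the other 3 hTau.P301S mice against gene length (bases, log scale); the line and grey band are the median and middle 50% of genes in 20 length bins, and points are the 10 genes. The line falls from 1.74 to -1.07, Sst, Npy and Vip lie near it, and Pvalb, Cck and Nos1 lie outside the band.

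Lamp5 had the smallest p of the 10 genes in this comparison. It was at 28.8, 43.2, 29.1 and 33.3 CPM in WT and at 68.5, 40.8, 42.4 and 46.7 CPM in hTau.P301S mice. WT replicate 2, one of the mice high in striatal markers, was the only WT mouse within the hTau.P301S range. The log2FC was 0.57 (SE 0.24, adjusted p = 0.598, edgeR), and it was 0.36 without replicate 1 and 0.50 (adjusted p = 0.113) without the 4 mice that stood apart. Lamp5 was also 0.40 higher on the log2 scale in the 8 transgenic than in the 8 WT mice (SE 0.17, adjusted p = 0.503, edgeR), the only one of the 10 genes with an unadjusted p under 0.05 there, where 9.06% of all genes had one. That difference was 0.34 without the mice high in striatal markers and 0.24 without the 4 mice, with an unadjusted p above 0.05 in both. The members below 0.05 were then Tac1 alone (log2FC 0.68), where 9.6% of all genes were, and Cck and Tac1 (-0.33 and 0.61), where 18.4% were. Without the 4 mice that stood apart, Lamp5 and Nos1 (log2FC 0.50 and -0.52) had an unadjusted p below 0.05 and groups that did not overlap between hTau.P301S and WT mice, where 16.3% and 23.1% of all genes did. The remaining peptide gene of the interneuron-selective cells, Vip, was at 8.99, 9.08, 20.1 and 18.1 CPM in WT and at 19.6, 22.0, 13.1 and 23.3 CPM in hTau.P301S mice, overlapping ranges with a log2FC of 0.48 (SE 0.33).

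Tac1, which encodes substance P and neurokinin A, showed the largest log2FC of the 10, and it rested on WT replicate 2. The WT mice were at 7.29, 206, 8.65 and 5.63 CPM and the hTau.P301S mice at 11.03, 6.41, 6.48 and 10.6 CPM. The log2FC was -2.73 (SE 1.18, adjusted p = 0.598, edgeR) and turned to 0.25 when WT replicate 2 was left out. Across all groups the 3 mice high in striatal markers had 37.7 to 206 CPM of Tac1 and the other 13 had 3.85 to 18.4 CPM, with no overlap. The same 3 mice had 63.6 to 134 CPM of Calb2 against 7.79 to 71.4 CPM, and 86.8 to 173 CPM of Cck against 147 to 1814 CPM. Their summed markers of hippocampal excitatory neurons were 1707 to 3140 CPM against 2135 to 6751 CPM in the other 13 mice. The part of striatal RNA in these levels was not tested.

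**Figure D3:**
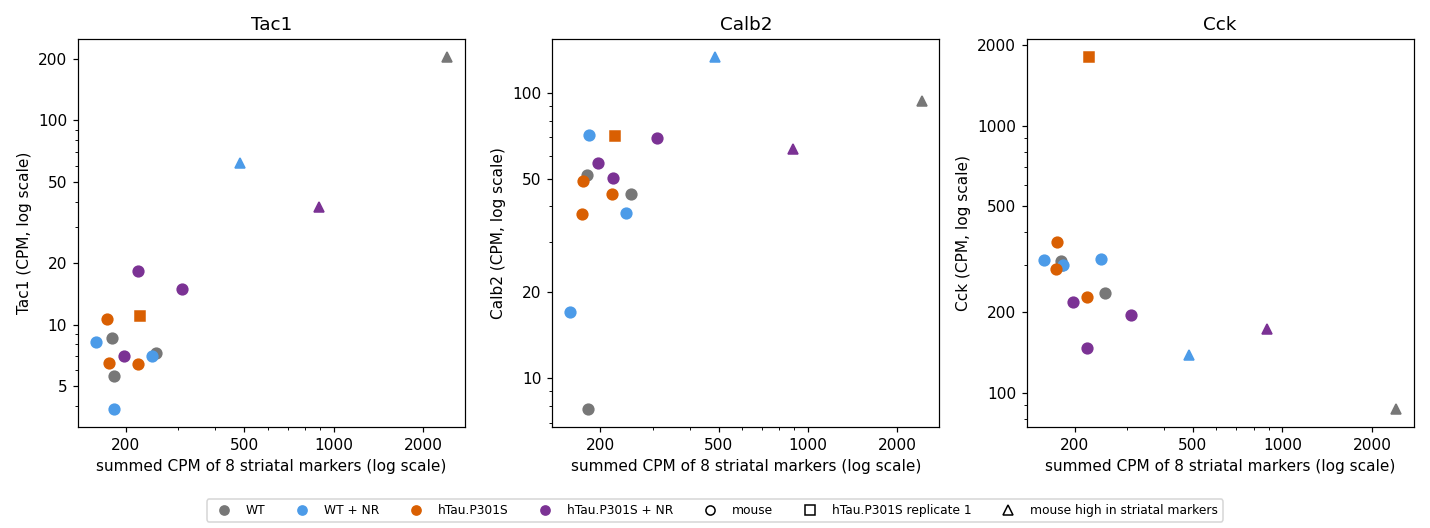
Tac1, Calb2 and Cck (CPM, log scale) against the summed level of 8 striatal markers (CPM, log scale) in each of the 16 mice, coloured by group. The 3 triangles, at 486 to 2409 CPM of striatal markers, are the highest mice for Tac1, and 2 of them are the highest for Calb2 and the lowest for Cck.

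Calb2 varied widely within WT mice, at 44.3, 93.6, 51.6 and 7.79 CPM, and lay at 70.5, 44.4, 49.2 and 37.6 CPM in hTau.P301S mice. The hTau.P301S values sat inside the WT range, with a log2FC of 0.03 (SE 0.59, edgeR).

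The second comparison, of hTau.P301S + NR with hTau.P301S mice, asks whether NR shifts the markers in transgenic mice. No member passed the limits (edgeR), against 0.0061% of the 16386 genes tested. Cck, Reln and Tac1 reached an unadjusted p below 0.05, where 12.9% of all genes did (7.01% lower and 5.86% higher). In Cck (lower) and Reln (higher) all 4 mice of one group lay beyond all 4 of the other, as in 11.9% of all genes (5.54% lower and 6.33% higher). The median log2FC of the 10 was -0.34 against -0.03 over all genes, and 0.04 without hTau.P301S replicate 1. DESeq2 on the same 8 mice called none of the members and gave no p for Pvalb, and fitted to all 16 mice it called Cck alone (log2FC -1.87, adjusted p = 0.0487), among 0.745% of the 32880 genes in that fit, and gave no p for Pvalb and Tac1. The hTau.P301S mice here are those of the first comparison, so a value of replicate 1 enters both with opposite sign.

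Cck was at 147, 196, 218 and 173 CPM in hTau.P301S + NR mice, all below the lowest hTau.P301S mouse at 228 CPM. The log2FC was -1.90 (SE 0.66, adjusted p = 0.367, edgeR). Without hTau.P301S replicate 1 it shrank to -0.67 while its SE shrank to 0.18 (adjusted p = 0.121), and without all 4 mice that stood apart it was -0.65 (adjusted p = 0.167). The difference kept its direction in all 3 fits, and most of its size rested on 1 mouse. Cck is also a product of pyramidal cells, and of 6 markers of hippocampal excitatory neurons 4 were below 0 in this comparison (median log2FC -0.30, none with an unadjusted p below 0.05), as were all 4 markers of CA3 pyramidal cells (median -1.23, 2 with an unadjusted p below 0.05). All 4 markers of CA2, 3 of 4 of CA1 and 3 of 5 of dentate granule cells were also below 0. The summed CA3 markers were at 719 CPM in hTau.P301S replicate 1 and at 219, 333 and 229 CPM in replicates 2 to 4. The part of these cells in the Cck result was not tested. Without the transgene, WT + NR mice were at 300.4, 315, 139 and 317 CPM, and the 3 of them not high in striatal markers were close to the 2 highest WT mice. The log2FC in WT was 0.20 (SE 0.40). The interaction, the NR effect in transgenic minus that in WT mice, was -2.07 on the log2 scale (SE 0.81, adjusted p = 0.558, edgeR), and -0.80 (SE 0.26, adjusted p = 0.237) over the 12 mice left without those that stood apart. No member passed the adjusted test of the interaction, nor did any of the 17555 genes (0%), while 7.92% had an unadjusted p under 0.05 and DESeq2 called 17 genes.

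Reln stood at 68.6, 69.1, 74.5 and 108 CPM in hTau.P301S + NR mice, above the highest hTau.P301S mouse at 55.4 CPM. The log2FC was 0.99 (SE 0.34, adjusted p = 0.367, edgeR) and 0.76 (adjusted p = 0.132) without hTau.P301S replicate 1. It was 0.46 (adjusted p = 0.402) once the length trend of each mouse was removed. WT + NR mice were at 40.6, 55.6, 72.3 and 70.9 CPM, within and around the WT levels, and the interaction was 0.89 on the log2 scale (SE 0.43, adjusted p = 0.558, edgeR). Reln is a defining product of Cajal-Retzius cells. The other markers of those cells that are not among the 10 genes (Trp73, Lhx1, Lhx5 and Ebf3) summed to 10.2 to 18.5 CPM in hTau.P301S + NR and to 5.10 to 9.75 CPM in hTau.P301S mice, without overlap. Of these, 3 were higher at an unadjusted p under 0.05, as were 5.86% of all genes, while 6.33% of all genes had groups apart upward. They were Lhx1, Lhx5 and Ebf3 with log2FC values of 2.15, 2.08 and 2.13, and Trp73 was at 0.11. Levels were low, with Lhx1 at 0 to 0.742 CPM in hTau.P301S and 0.560 to 1.88 CPM in treated mice. Lhx5 was at 0 to 0.545 CPM and at 1.01 to 1.75 CPM in the same groups. Lhx1 and Lhx5 were highest in WT replicate 2 and WT + NR replicate 3, mice high in striatal markers. They were at 4.82 and 4.71 CPM in the first and at 9.72 and 10.3 CPM in the second. The part of these markers in the Reln result was not tested. In bulk tissue, fewer cells of a type and less RNA per cell cannot be told apart.

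Nos1 and Calb2 had higher levels with NR, without being called, once hTau.P301S replicate 1 was left out. Nos1 was at 109, 75.6, 123 and 120.1 CPM in hTau.P301S + NR mice, and its log2FC went from 0.88 (SE 0.64, adjusted p = 0.470, edgeR) to 0.51 (SE 0.17, adjusted p = 0.175). Replicate 2 of the treated mice stayed within the hTau.P301S range. Calb2 was at 50.5, 69.3, 56.6 and 63.6 CPM in hTau.P301S + NR mice, and its log2FC went from 0.24 (adjusted p = 0.567, edgeR) to 0.47 (SE 0.14, adjusted p = 0.153). Without replicate 1 the 3 hTau.P301S mice, at 37.6 to 49.2 CPM of Calb2, all lay below the 4 treated mice. In that fit 5 of the 10 genes had an unadjusted p under 0.05 and 3 had groups that did not overlap, where 18% and 17.1% of all genes did. Without all 4 mice that stood apart these counts were 6 (Lamp5 added) and 5 (Pvalb and Lamp5 added), where 17.9% and 22.6% of all genes did.

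Tac1 reached 18.4, 14.9, 7.06 and 37.7 CPM in hTau.P301S + NR mice, 3 of which were above every hTau.P301S mouse. Its log2FC of 1.17 (SE 0.47, adjusted p = 0.367, edgeR) was 0.64 (adjusted p = 0.534) without hTau.P301S + NR replicate 4, the mouse high in striatal markers. All 9 striatal markers including Tac1 were higher in the treated mice, 6 of them at an unadjusted p under 0.05. Without that mouse 8 of 9 were higher, 3 of them at an unadjusted p below 0.05.

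Pvalb, Npy and Sst had log2FC values between -0.23 and 0.11 without hTau.P301S replicate 1. Pvalb was at 23.3, 30.6, 26.7 and 59.2 CPM in hTau.P301S + NR mice, and its log2FC of -1.70 (SE 0.86, adjusted p = 0.369, edgeR) became 0.11. Npy, at 18.8, 25.7, 29.8 and 32.6 CPM, went from -1.03 to -0.23. Sst, at 142, 216, 206 and 241 CPM, went from -0.63 to -0.03. The treated mice overlapped the levels of hTau.P301S replicates 2 to 4 in all 3 genes, but for Pvalb only through treated replicate 4, one of the mice high in striatal markers. Without the 4 mice that stood apart the Pvalb groups did not overlap, at a log2FC of -0.28 (SE 0.13, adjusted p = 0.307, edgeR), and those of Npy and Sst did. Vip, at 10.1, 13.1, 17.3 and 25.1 CPM, and Lamp5, at 26.8, 37.0, 33.9 and 52.3 CPM, had log2FC values of -0.26 (SE 0.31) and -0.41 (SE 0.26). Lamp5 was at -0.20 without hTau.P301S replicate 1, at -0.61 (adjusted p = 0.534) without the mouse high in striatal markers and at -0.41 (SE 0.14, adjusted p = 0.204, edgeR) without the 4 mice that stood apart. In the last of these its groups did not overlap, and in the last 2 its unadjusted p was below 0.05, as for 6.96% of all genes without the mouse high in striatal markers. Vip was at -0.53 (SE 0.26, adjusted p = 0.318) without the 4 mice.

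**Figure D4:**
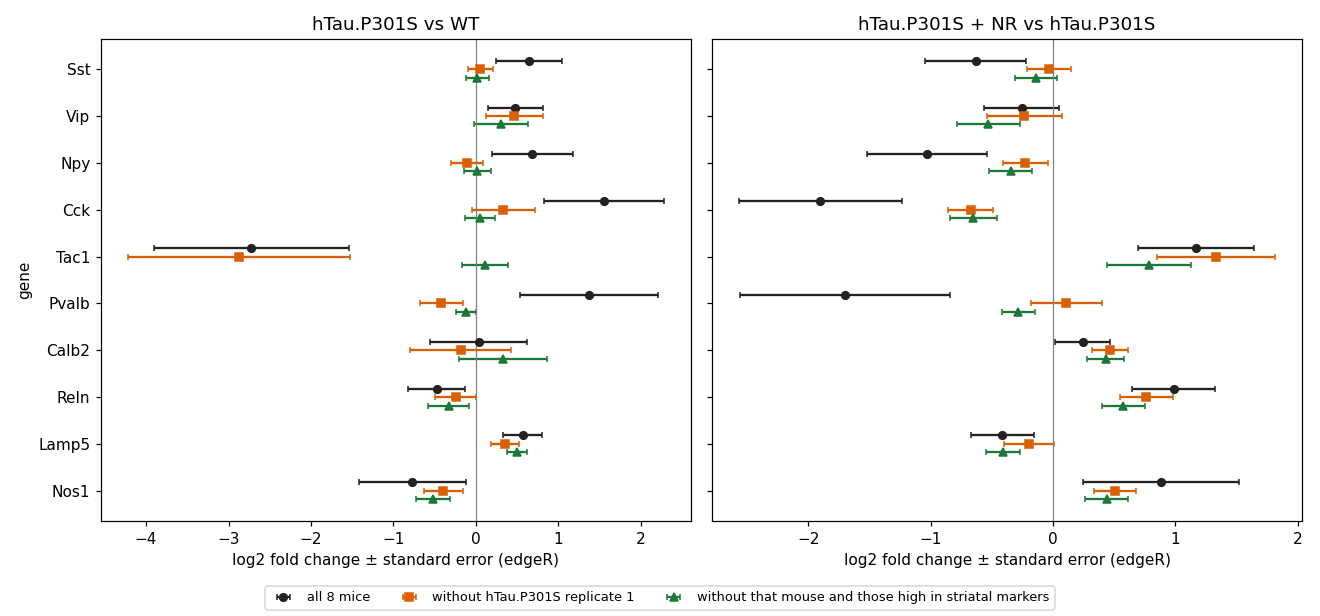
Log2FC of each gene (point, bars are SE, edgeR) in hTau.P301S against WT mice and in hTau.P301S + NR against hTau.P301S mice, fitted to all 8 mice, without hTau.P301S replicate 1, and without all mice that stood apart. In the NR comparison Pvalb, Npy and Sst move to 0.11, -0.23 and -0.03 without replicate 1, whereas Cck stays at -0.67 and Reln at 0.76.

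The third comparison, of WT + NR with WT mice, asks what NR does without the transgene. No member passed the limits (edgeR), nor did any of the 16714 genes tested (0%), none of the 10 had an unadjusted p under 0.05, where 0.79% of all genes did, and no groups lay apart, where those of 0.754% did. DESeq2 called 3 genes, none of them a member. The medians were -0.08 for the 10 genes and 0.00 for all genes. Npy, with the smallest p of the 10, was at 23.7, 31.4, 22.3 and 26.6 CPM in WT + NR mice (log2FC -0.38, SE 0.19, edgeR). Pvalb, at 14.8, 31.9, 38.8 and 29.7 CPM, had a log2FC of -0.59 (SE 0.33), and in both genes the ranges overlapped. Sst was at 86.6, 167, 227 and 168 CPM, Vip at 5.34, 18.9, 11.7 and 16.9 CPM and Lamp5 at 26.7, 44.6, 27.0 and 28.6 CPM in WT + NR mice. The first WT + NR mouse was the lowest of the 8 mice for Pvalb, Sst and Vip. Nos1 was at 79.6, 94.96, 105 and 102 CPM, Calb2 at 71.4, 17.0, 134 and 37.9 CPM and Tac1 at 3.85, 8.20, 62.0 and 7.05 CPM. The high Calb2 and Tac1 values are those of WT + NR replicate 3, a mouse high in striatal markers.

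The fourth comparison set hTau.P301S + NR against WT + NR mice, and asks whether the genotypes differ under NR. No member passed the limits (edgeR), against 0.054% of the 16671 genes tested, none had an unadjusted p under 0.05, where 6.09% of all genes did, and none had groups apart, where 3.73% did. The nearest were Cck (log2FC -0.54, SE 0.25) and Reln (0.42, SE 0.21), both at an adjusted p = 0.781 (edgeR). Without the mice high in striatal markers, Cck was -0.73 (SE 0.15, adjusted p = 0.156, edgeR). WT + NR replicate 3, left out there, was the lowest Cck mouse of its group. Tac1 went from -0.06 to 1.08 (SE 0.39, adjusted p = 0.378), and these 2 were the members with an unadjusted p below 0.05 in that fit, where 11% of all genes had one. Over all 16 mice, none of the 10 passed the test of genotype (edgeR), against 0.159% of genes, and none had groups apart, where 0.194% did.

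A wider list of 23 GABAergic genes was described in the same way, with the GABA-synthesizing enzymes Gad1 and Gad2, the vesicular GABA transporter Slc32a1 and transcription factors of the lineage. In hTau.P301S against WT mice, 20 of the 23 had log2FC values below 0, where 52.3% of all genes were above 0, with a median of -0.39, and 1 had an unadjusted p under 0.05. Without the 4 mice that stood apart 9 were below 0 and the median was 0.04. With NR in transgenic mice, 22 of the 23 were above 0, with a median of 0.65, and 7 had an unadjusted p below 0.05, all higher, as 5.86% of all genes did in that direction. Without those 4 mice 17 were above 0 with a median of 0.39, 9 had an unadjusted p under 0.05 upward and 1 downward, where 17.9% of all genes had one in either direction. None of the 23 was called (edgeR) with all mice in any of the 6 comparisons.

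Gad2 had the clearest separation of the 3 genes named in every case. It was at 43.5, 189, 183 and 163 CPM in hTau.P301S and at 414, 383, 270.2 and 403 CPM in hTau.P301S + NR mice, all of the latter above all of the former. The log2FC was 1.34 (SE 0.41, adjusted p = 0.367, edgeR), and 1.05 (SE 0.16, adjusted p = 0.0496) without hTau.P301S replicate 1, where it passed the limits. Without all 4 mice that stood apart it was 0.998 (adjusted p = 0.0743) and was not called. In hTau.P301S + NR against WT + NR mice it was 1.34 (SE 0.16, adjusted p = 0.0273) without the mice high in striatal markers, and passed the limits there too. WT mice were at 221, 476, 174 and 134 CPM of Gad2 and WT + NR mice at 131, 142, 413 and 151 CPM, in both groups highest in the mouse high in striatal markers. Gad1 was at 146, 364, 361 and 393 CPM in hTau.P301S and at 461, 497, 386 and 535 CPM in treated mice, with a log2FC of 0.57 (SE 0.30), which was 0.27 without the 4 mice. Slc32a1 had 0.65 (SE 0.25, adjusted p = 0.367, edgeR), and 0.50 (adjusted p = 0.293) without them. Dlx6os1, a non-coding RNA of the lineage, had 0.68 and Sox6, a transcription factor of cells that come to express Pvalb or Sst, had 0.93, both without overlap between the groups. Elfn1, a synaptic protein of Sst cells that is also on the list of other subtype genes, had 1.11 (adjusted p = 0.367).

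**Figure D5:**
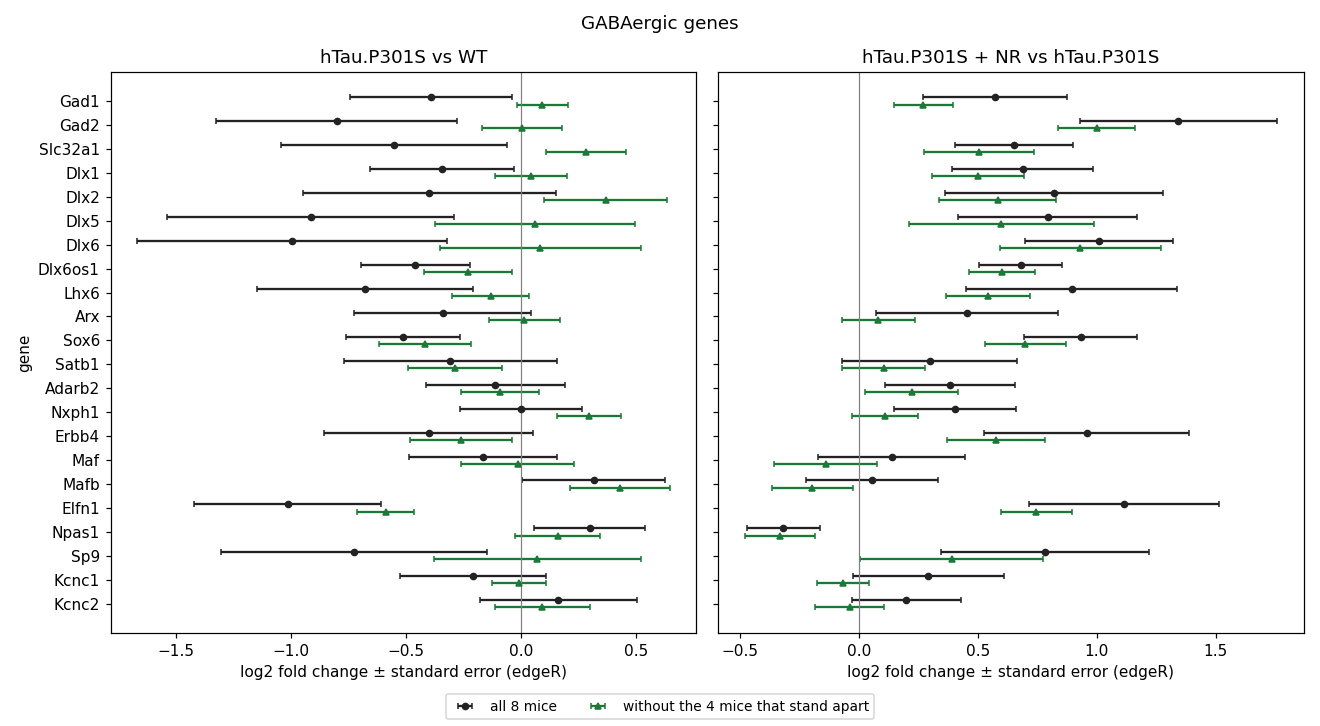
Log2FC (points, bars are SE, edgeR) of 22 of the 23 GABAergic genes (1 is not shown), in hTau.P301S against WT mice and in hTau.P301S + NR against hTau.P301S mice, with all 8 mice (circles) and without the 4 mice that stood apart (triangles). In the second comparison all circles but 1 and 17 triangles lie above 0.

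Under NR in transgenic mice 4 of the 10 subtype markers had log2FC values above 0, beside 22 of the 23 GABAergic genes and 47.6% of all genes. Of 24 other subtype genes 23 were tested in that comparison, with 15 above 0 and a median of 0.20, and 4 higher and 1 lower at an unadjusted p under 0.05, where 5.86% and 7.01% of all genes were. The one lower was Cort, a paralogue of Sst, at 16.8, 4.08, 4.30 and 4.43 CPM in hTau.P301S and 1.30, 2.61, 3.25 and 2.53 CPM in treated mice (log2FC -1.62, adjusted p = 0.367, edgeR). Nkx2-1, a transcription factor of the medial ganglionic eminence, had a log2FC of 2.61 at levels of 0.443 to 2.02 CPM in hTau.P301S and 2.52 to 7.10 CPM in treated mice. Its highest levels, 14.1 and 15.4 CPM, were in WT replicate 2 and WT + NR replicate 3, which are mice high in striatal markers. Grin3a, an NMDA receptor subunit, had 0.98.

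Among receptors for the peptides and members of the reelin pathway, 20 of 21 genes were tested under NR in transgenic mice, with 12 above 0, where 47.6% of all genes were, and a median of 0.33, and 5 were higher at an unadjusted p under 0.05, as were 5.86% of all genes. Cckar, a receptor for cholecystokinin, was at 1.79, 1.67, 1.23 and 2.53 CPM in treated mice and at 0, 0.106, 0 and 0.0554 CPM in hTau.P301S mice (adjusted p = 0.193, edgeR). It passed the limits without hTau.P301S replicate 1 (adjusted p = 0.0381) and not without all 4 mice that stood apart (adjusted p = 0.0651). Its levels were highest in WT replicate 2 and WT + NR replicate 3, at 4.71 and 3.95 CPM, which are mice high in striatal markers. The tachykinin receptors Tacr3 and Tacr1 had log2FC values of 1.03 and 2.22, and Gucy1a1, a subunit of the receptor for nitric oxide, had an interaction of 1.83 (adjusted p = 0.558). Tacr3 was highest in WT replicate 2 and WT + NR replicate 3, at 11.8 and 16.6 CPM, and was at 6.02 CPM in hTau.P301S + NR replicate 4. Tacr1 was at 15.1 and 9.92 CPM in those mice and at 11.7 CPM in hTau.P301S + NR replicate 4, its highest levels. Gucy1a1 was highest in WT replicate 2 at 148 CPM and hTau.P301S + NR replicate 4 at 125 CPM. The 3 mice high in striatal markers also had 125 to 270 CPM of thalamus and habenula markers, against 67.4 to 227 CPM in the other 13. The part of striatal RNA, or of RNA from other regions, in these results was not tested. Of 10 genes that process or store peptides, none had an unadjusted p under 0.05 for NR in transgenic mice or for hTau.P301S against WT mice with all mice. Without hTau.P301S replicate 1, and again without the 4 mice that stood apart, Pcsk2, Cpe and Scg3 were higher against WT at such a p. In those fits 5.16% and 6.82% of all genes were. For NR in the same settings Chgb was lower at such a p, where 18% and 17.9% of all genes had one. Pcsk2, a prohormone convertase, was at 205, 219, 258 and 259 CPM in WT and at 266, 287, 333 and 349 CPM in hTau.P301S mice (log2FC 0.39, adjusted p = 0.598), without overlap. Cpe, at 2261 to 2834 CPM in WT and 3072 to 3725 CPM in hTau.P301S mice, did not overlap either, as for 6.24% of all genes. Over 16 mice, Cpe and Scg3 were 0.24 and 0.23 higher with the transgene and Scg5 had an interaction of -1.06, each with an unadjusted p below 0.05 and none called (edgeR).

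Across the 16 mice the 10 genes formed 45 pairs, tested by 100000 permutations with Benjamini-Hochberg adjustment over the pairs. With both coefficients 2 pairs passed. Reln and Nos1 had a Pearson r of 0.833 and a Spearman rho of 0.835 of log2 CPM (permutation p = 7.0e-05 and 0.00016, adjusted 0.00315 and 0.0072). The r was 0.725 without the 2 mice farthest from the median of Reln, 0.746 without hTau.P301S replicate 1 and 0.804 for deviations from the group means. Npy and Lamp5, both found in neurogliaform cells, had an r of 0.762 and a rho of 0.762 (permutation p = 0.00033 and 0.00083, adjusted 0.0054 and 0.0187). Without the 2 mice farthest from the median of Npy the r was 0.544, and over the 12 mice without those that stood apart it was 0.498. By Pearson alone 5 more pairs passed, among them Pvalb with Sst (r = 0.882, rho = 0.559), whose r was 0.377 without the 2 mice farthest from the median of Pvalb, 0.683 without hTau.P301S replicate 1 and 0.858 over the 12 mice. Cck and Tac1 were opposed, with an r of -0.558 (permutation p = 0.0448, adjusted 0.112) that was -0.801 without the 2 mice farthest from the median of Cck and -0.895 without hTau.P301S replicate 1. The r of this pair was -0.659 over the 12 mice.

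The genes whose log2 CPM was most like that of a marker over the 16 mice were Mrpl27 and Yif1a for Pvalb (r = 0.967 and 0.944), Pop4 and Ckmt1 for Sst (0.919 and 0.903), and Nov and Ovol2 for Vip (0.832 and 0.831). For Npy they were Cog8 and Ube2m (0.957 and 0.948), and for Calb2 Ngb and Plpp4 (0.881 and 0.854), while Rprml (0.949) was among those of Cck. These are correlations picked as the highest of 17555 genes, so no p is given, and the mice share the differences in gene length and region described above. Reln was most like Pcdh7 and AI504432 (0.964 and 0.942), Lamp5 most like Krt12 and Asns (0.909 and 0.844), Nos1 most like Ogfod1 and Kif1a (both 0.984), and Tac1 most like Kcna5 and Atg9b (0.934 and 0.928). Without hTau.P301S replicate 1 the closest gene was unchanged for Npy, Reln, Lamp5 and Tac1, and it became Kctd8 for Pvalb, Agbl4 for Sst, Adgra1 for Vip, Ano2 for Calb2 and Kif3a for Nos1.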

How the data were processed

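RNA from the hippocampus of 16 mice was made into libraries with a NEBNext Ultra kit. The authors trimmed the reads with Trim Galore after FastQC and used STAR with the mm10 genome and RSEM, and the table they deposited holds whole-number counts per gene. The strand setting of the counting and the definition of the gene lengths in that table are not given in the sources used here. No column of samples was left unused.

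Groups come from the sample labels. edgeR 4.0.16 (R 4.3.3) was run separately on the 8 mice of each pair of groups, and on 16 mice for the interaction and the genotype, after its filterByExpr step and TMM scaling. The thresholds for a call follow the study, except that the interaction has no fold limit. SE is the log2FC divided by the square root of its F statistic. Log2 CPM used a prior count of 2. P-values measure the spread between mice of a group. Positions come from GENCODE and promoter windows from RefSeq. Correlations used scipy 1.17.1. The code was tested on simulated counts.

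The genes and lists were chosen with earlier results of these data known. The 10 genes are described in every comparison. From each other list, at most 4 genes with the smallest p were named, with Gad1, Gad2 and Slc32a1 always, and for each marker the 2 genes of highest r. Some genes that these rules name or the lists hold are not reported here. Cajal-Retzius markers were named after their values were seen. The mice high in striatal markers (summed level over 2 times the median, Tac1 left out) and the length trend (lowess span 0.3, as an offset) were alternatives chosen after seeing the data. Other alternatives were DESeq2 1.42.0, its size factors, 2 other filters, a table without mitochondrial genes, 1 fit over all groups, the replicate number as a block, and each mouse left out in turn. As checks of the labels, Thy1, source of the transgene promoter, lay at 804-1639.9 CPM in hTau.P301S and 462-633 CPM in WT mice, and mouse Mapt at 188-477 and 369.6-447 CPM. No 2 mice of a group agreed within sampling noise (chi-square per gene at least 11.4).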

Additional observations from a re-analysis of the deposited data

Results flagged for a closer look

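In 10 of 40 sets (10 genes in 4 groups of 4 mice) 1 mouse lay far from the other 3, where chance gives about 2. Of the 10, 4 were hTau.P301S replicate 1, at 348 CPM for Pvalb, 609 CPM for Sst, 121 CPM for Npy and 1814 CPM for Cck. Tac1 was high in WT replicate 2 at 206 CPM and in WT + NR replicate 3 at 62.0 CPM, and Pvalb was high in WT replicate 2 at 68.7 CPM. Cck was low in WT + NR replicate 3 at 139 CPM. Reln was high in hTau.P301S + NR replicate 4 at 108 CPM, which with the 2 mice just named makes the 3 high in striatal markers. Lamp5 was high in WT + NR replicate 2 at 44.6 CPM, a mouse that did not stand apart in either respect.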

How the results depend on the processing

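The number of genes called in hTau.P301S against WT mice (1 with edgeR) was 116 with DESeq2, 492 with DESeq2 on all groups, 36 with all groups in one edgeR fit, 5 without a filter, 9 with the length trend removed and 23 without the 4 mice that stood apart. For NR in hTau.P301S mice (1) it was 253, 245 and 2 in the first 3 of these, 0 with at least 10 counts in every mouse, 0 without the mice high in striatal markers and 2 without the 4 mice. For NR in WT mice (0) both DESeq2 fits called 3. For the genotypes under NR (9) DESeq2 called 58, and 25 on all groups, against 15 without a filter and 28 without the mice high in striatal markers. The interaction (0) had 17 with DESeq2. Genotype over 16 mice (28) had 159 with DESeq2, 13 with at least 10 counts in every mouse, 51 with the length trend removed and 203 without the 4 mice. With 1 mouse left out the counts were 1 to 14, 0 to 33, 0 to 0, 8 to 31, 0 to 1 and 19 to 78, in the order of the comparisons above. The causes were not tested.

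Of 583 member values under these alternatives 33 had the opposite sign and 1 was newly called, Cck for NR in hTau.P301S mice at a log2FC of -1.87 with DESeq2 on all groups. Opposite signs in hTau.P301S against WT were -0.0049 for Calb2 without a filter, -0.0035 for Npy and -0.17 for Calb2 with the length trend removed, 0.25 for Tac1 without the mice high in striatal markers, and -0.12 for Pvalb and 0.11 for Tac1 without the 4 mice. With the length trend removed they were 0.10 for Sst under NR in hTau.P301S mice, 0.01 for Calb2 in the genotypes under NR, 0.30 for Sst, 0.08 for Npy and 0.12 for Calb2 in the interaction, and 0.03 for Reln in genotype. Without the mice high in striatal markers they were -0.10 for Reln and 0.13 for Lamp5 under NR in WT mice, -0.02 for Vip, -0.14 for Npy, 0.48 for Calb2, -0.03 for Lamp5 and 1.08 for Tac1 in the genotypes under NR, and 0.52 for Calb2 and 0.68 for Tac1 in genotype. Without the 4 mice they were 0.19 for Pvalb, 0.39 for Sst and 0.14 for Calb2 in the interaction, and -0.01 for Pvalb, -0.05 for Npy, -0.33 for Cck, 0.41 for Calb2, 0.01 for Reln and 0.61 for Tac1 in genotype. DESeq2 gave no p for Pvalb and Tac1 in several fits.

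With 1 mouse left out 50 of 640 member values had the opposite sign and none was newly called. For hTau.P301S against WT these were Pvalb -0.42 to 1.68, Npy -0.11 to 0.87, Calb2 -0.34 to 0.53 and Tac1 -3.12 to 0.25. For NR in hTau.P301S mice these were Pvalb -2.06 to 0.11. For NR in WT mice these were Vip -0.31 to 0.16, Cck -0.08 to 0.42, Calb2 -0.22 to 0.93, Reln -0.01 to 0.30, Lamp5 -0.28 to 0.06, Nos1 -0.18 to 0.20 and Tac1 -3.16 to 1.52. For the genotypes under NR these were Pvalb -0.10 to 0.46, Npy -0.07 to 0.18, Calb2 -0.44 to 0.51 and Tac1 -0.60 to 1.62. For the interaction these were Pvalb -1.45 to 0.70, Sst -0.52 to 0.26, Vip -0.44 to 0.07, Npy -0.83 to 0.15, Calb2 -0.66 to 0.49 and Tac1 -0.31 to 4.36. For genotype over 16 mice these were Pvalb -0.07 to 0.98, Npy -0.04 to 0.46, Cck -0.11 to 0.63, Calb2 -0.22 to 0.27, Reln -0.12 to 0.09 and Tac1 -1.66 to 0.12. Under NR in hTau.P301S mice 8 of the 10 genes kept 1 sign in every fit. In hTau.P301S against WT 6 did, and for NR in WT mice 3 did. The number was 4 in the genotypes under NR, 4 in the interaction and 4 in genotype over 16 mice. The fits of a comparison share most of their mice.

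The replicate numbers did not pair the mice, since same-numbered mice of 2 groups had deviations correlated at -0.537 to 0.417 and 2 of 16 mice correlated best with their own number. With the replicate number as a block 3 genes were called in hTau.P301S against WT, 0 for NR in hTau.P301S mice and 4 in the genotypes under NR, and the sign turned for Calb2 (0.23) and Tac1 (0.87) in the genotypes under NR and Calb2 (0.12) in genotype.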
